A study of Mus musculus with 30 samples.

Results

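Fatty acid oxidation is described here through 34 genes that cover its whole course: activation of fatty acids, the carnitine shuttle, mitochondrial and peroxisomal beta-oxidation, the transfer of its electrons, and the nuclear receptors that control it. The genes were taken from a list of symbols that was chosen with earlier results of these data known. The shares of the list set beside those of all genes are therefore descriptive. All 34 genes were found among the 46113 gene identifiers of the count files. Of these, 30 were present as 1 entry under the listed symbol. Acsl3, Acadvl, Acadl and Ppard had 2 entries under 1 gene identifier, 1 of them on an alternate locus, and their reads were summed. Acadvl and Ppard had no unique reads, so neither has a value from unique reads. The study asked how the mRNA of bone marrow haematopoietic stem cells (HSCs) and progenitors changes after culture and after 5-fluorouracil (5-FU), a drug that is toxic to dividing cells. All 30 libraries came from C57BL/6 mice aged 8 to 10 weeks, and each was made from 100 sorted cells. The 5-FU experiment compared HSCs (CD150+ CD48- EPCR+ Lineage-) of untreated mice (n = 4) with HSCs collected 6 days (n = 4) or 10 days (n = 6) after the drug. The culture experiment compared HSCs of untreated mice, taken directly (n = 4) or after 1 day in culture (n = 4). The third experiment compared CD48- HSCs (n = 4) with CD48+ haematopoietic progenitor cells (HPCs, CD150+ CD48+ EPCR+ Lineage-, n = 4), both collected 10 days after 5-FU.

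A fatty acid is first joined to coenzyme A by an acyl-CoA synthetase. Long chains are then passed to carnitine by CPT1 on the outer mitochondrial membrane, carried through the inner membrane and returned to coenzyme A by CPT2. Each turn of beta-oxidation dehydrogenates, hydrates, dehydrogenates again and cleaves the chain to release acetyl-CoA, and the electrons of the first step leave through the electron transfer flavoprotein. Peroxisomes run a related spiral on very long and branched chains. In the blood system, PPAR-delta and fatty acid oxidation have been studied as a support of HSC maintenance.

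The promoters of 5 of the genes are shown because their transcripts carried the main differences described below. Cpt1a, the entry step, moved in opposite directions after 5-FU and in culture. Etfa and Etfb encode the 2 subunits of 1 flavoprotein, and both rose after 5-FU and in culture. Hadha shares its upstream region with its partner subunit Hadhb, and Acad10 had the largest falls at day 6 and in culture. Each promoter is the stretch of 250 bases before the start of the gene, from RefSeq on GRCm38.p6, written 5′ to 3′ on the strand of the gene. Capitals mark matches, on either strand, to AGGTCA (the half-site of nuclear receptors such as the PPARs), CCAAT (the CCAAT box), GGGCGG (the GC box) and the NRF1-type site (GCGC, any 2 bases, GCGC).
Cpt1a, chr19:3323051-3323300, plus strand: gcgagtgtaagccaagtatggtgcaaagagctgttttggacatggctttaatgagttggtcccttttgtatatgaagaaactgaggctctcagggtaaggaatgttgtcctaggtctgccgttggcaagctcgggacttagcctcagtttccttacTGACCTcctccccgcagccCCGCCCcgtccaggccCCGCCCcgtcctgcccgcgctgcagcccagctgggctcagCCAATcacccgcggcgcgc
Etfa, chr9:55512244-55512493, minus strand: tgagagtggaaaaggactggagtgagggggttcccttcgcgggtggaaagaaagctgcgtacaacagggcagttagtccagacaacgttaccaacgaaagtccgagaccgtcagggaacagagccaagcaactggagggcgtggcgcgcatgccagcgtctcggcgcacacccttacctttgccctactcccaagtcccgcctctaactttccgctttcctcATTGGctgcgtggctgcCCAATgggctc
Etfb, chr7:43443822-43444071, plus strand: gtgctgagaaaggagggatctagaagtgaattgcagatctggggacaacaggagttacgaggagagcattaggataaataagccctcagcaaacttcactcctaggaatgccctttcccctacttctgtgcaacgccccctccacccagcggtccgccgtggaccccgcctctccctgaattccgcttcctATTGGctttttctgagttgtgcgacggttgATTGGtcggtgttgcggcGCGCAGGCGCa
Hadha, chr5:30154981-30155230, minus strand: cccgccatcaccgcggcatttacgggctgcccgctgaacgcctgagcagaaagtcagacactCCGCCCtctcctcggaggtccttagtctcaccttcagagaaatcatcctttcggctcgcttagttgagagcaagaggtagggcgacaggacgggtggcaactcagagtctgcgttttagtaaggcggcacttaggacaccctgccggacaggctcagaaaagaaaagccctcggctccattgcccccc
Acad10, chr5:121660511-121660760, minus strand: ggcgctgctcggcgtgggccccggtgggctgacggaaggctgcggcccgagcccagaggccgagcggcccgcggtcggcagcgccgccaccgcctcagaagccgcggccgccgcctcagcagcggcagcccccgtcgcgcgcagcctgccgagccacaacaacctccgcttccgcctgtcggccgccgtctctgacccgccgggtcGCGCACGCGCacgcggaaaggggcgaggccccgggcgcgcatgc
The Cpt1a stretch held 1 half-site, 1 CCAAT box and 2 GC boxes, that of Etfa 2 CCAAT boxes, and that of Etfb 2 CCAAT boxes and 1 NRF1-type site. The Hadha stretch held 1 GC box and that of Acad10 1 NRF1-type site. The start used for Cpt1a in that table lies inside the gene as the count files annotate it (chromosome 19, 3322325 to 3385735, mm10). Promoters were found for 30 of the 34 genes. A match to AGGTCA was present in 4 of the 30 (13.3%), against 14% of all 32851 promoters of the table. GGGCGG was found in 23 of the 30 (76.7%, all promoters 32.7%), CCAAT in 13 (43.3%, all promoters 33.8%) and the NRF1-type site in 5 (16.7%, all promoters 4.98%). The search allowed matches to different motifs to overlap. A listed gene counted as matched if any of its promoters matched, whereas the share of all promoters was taken per promoter. That share covered the whole table, not only genes expressed here. The printed Hadha stretch lies wholly between Hadha and Hadhb, whose annotated starts are separated by 272 bases on chromosome 5 and point away from each other.

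The libraries held 5208722 to 12243208 exon reads. Levels are given as CPM, exon read counts scaled to library size within each experiment, as mean ± SD over libraries, and changes as log2 fold changes with their SE from edgeR, with p-values adjusted over all genes tested. A gene is said to rise, fall, differ or pass where its adjusted p was under 0.05, and other settings are the alternative fits listed with the processing, each left-out library among them. Introns took 65.1 ± 1.28% of the reads on genes with exons in untreated HSCs, 57.5 ± 0.867% at day 6, 60.1 ± 1.79% at day 10, 66.4 ± 0.940% and 56.3 ± 0.157% in uncultured and cultured HSCs, and 63.6 ± 2.34% and 59.7 ± 1.63% in CD48- HSCs and HPCs. Cd48 was at 45.7 to 56.4 CPM in HPC libraries and at most 6.10 CPM in HSC libraries. Markers of other cells moved with the groups: all 10 macrophage markers rose at day 6 (summed CPM 51.2 to 604, untreated 43.4 to 62.6), 5 of 10 rose at day 10 and 7 of 10 were higher in HPCs (180.3 to 1287, CD48- HSCs 84.0 to 357), while the summed erythroid list was at 2410 to 6364 CPM in untreated HSCs and 315 to 443 at day 6. The 10 HSC markers summed to 4983 to 5736 CPM in untreated HSCs and to 2880 to 3025 at day 6, and to 3193 to 3840 in CD48- HSCs and 1918 to 2259 in HPCs. The part of these cell markers in the results below was not tested. The 4 adipocyte markers summed to at most 9.68 CPM in any library. Counts below are also given without 8 libraries in which macrophage, stromal or neutrophil transcripts stood apart: untreated replicate 3, day 6 replicate 1, day 10 replicate 3, uncultured replicates 1 and 4, CD48- replicates 3 and 4, and CD48+ replicate 3. Erythroid markers were not used in choosing them. No source says that libraries of a group came from separate mice, so p-values measure only the spread between libraries, which may be technical. As bulk samples, they cannot tell a change in RNA per cell from a change in the mix of cells.

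In HSCs of untreated mice, 33 of the 34 genes were readily measured, and the entry step stood highest. Levels of different genes were compared per exon length, as CPM per kb of exon (RPKM). Cpt1a, the rate-limiting carnitine palmitoyltransferase, had the highest level of the list, at 63.8 ± 8.71 RPKM (SD, n = 4), followed by Hadh, the hydroxyacyl-CoA dehydrogenase of short chains, at 50.5 ± 7.98, and by Acaa1a, the peroxisomal thiolase, at 34.5 ± 1.81. The libraries of Cpt1a and Hadh overlapped, while Acaa1a lay below both. The flavoprotein genes were alike, with 18.03 ± 1.94 RPKM for Etfb, 16.1 ± 1.24 for Etfdh and 14.8 ± 1.79 for Etfa. Ehhadh, the peroxisomal L-bifunctional enzyme, was low at 3.84 ± 1.35 RPKM, and its libraries ranged widely. Ppara, the nuclear receptor that drives these genes in liver, was near the detection level at 0.0442 ± 0.0411 RPKM, whereas its relative Ppard reached 10.6 ± 1.90. Ppara stayed near or under 1 CPM in every group (highest mean 1.01 ± 0.800 CPM in CD48- HSCs at day 10, n = 4), did not pass the filter on low counts and was not tested, and 3 reads correspond to 0.251 to 0.561 CPM in these libraries.

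**Figure D1:**
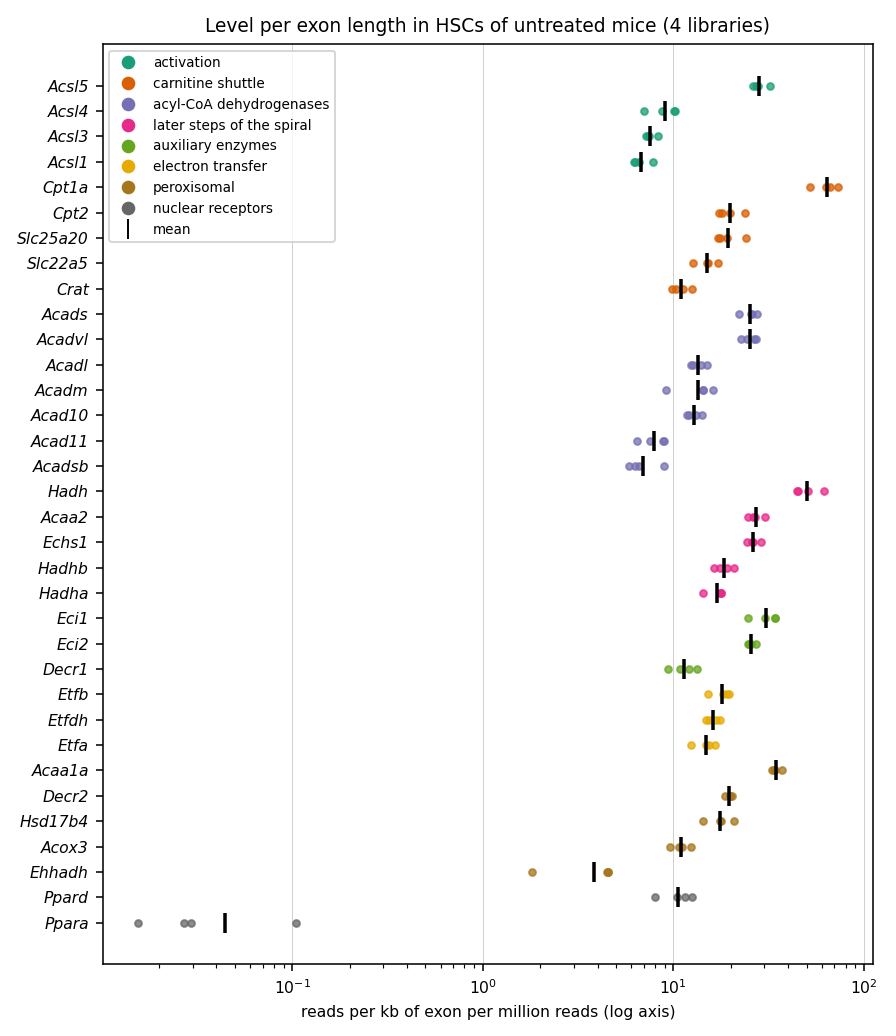
Levels per exon length (RPKM, log axis) of the 34 genes in the 4 libraries of untreated HSCs, points coloured by role and black ticks at the mean. Cpt1a and Hadh stand highest at 63.8 and 50.5, the next is Acaa1a at 34.5, and Ppara lies far to the left at 0.0442.

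At day 6 after 5-FU, 22 of the 33 tested genes had changed (66.7%; 51.4% of all genes), and more had risen than fallen. Of 33 genes tested, 15 rose (45.5%; 25.7% of all 12886 genes rose) and 7 fell (21.2%; 25.7% of all genes fell), and for 22 the libraries of the 2 groups did not overlap (48.5% of all genes). The 15 were Acsl5, Cpt1a, Slc25a20, Acadvl, Acadl, Acads, Hadh, Hadha, Hadhb, Acaa2, Eci2, Etfa, Etfb, Etfdh and Hsd17b4, and the 7 were Acsl1, Acsl3, Crat, Acadsb, Acad10, Acox3 and Decr2. The median change of the list was 0.07 on the log2 scale, against -0.04 for all genes. Without the 8 libraries, 11 rose and 7 fell. For fits with libraries left out, here and below, no share of all genes is given. A changed count in them cannot be read as particular to the listed genes.

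At day 10, 18 of 33 genes differed from untreated HSCs (54.5%; 38.0% of all genes): 12 were above them (36.4%; 19.9% of all genes) and 6 below (18.2%; 18.1% of all genes), with a median change of 0.17 against -0.00 for all genes. For 8 genes the groups did not overlap (23.6% of all genes). This comparison uses the same 4 untreated libraries as day 6, so the 2 are not independent. Compared directly with day 6, Acad10, Acox3, Decr2 and Ppard were higher at day 10 and Hadh, Acaa2 and Etfa lower, which is 7 of 33 (21.2%; 30.6% of all genes, of which 14.7% were higher and 15.9% lower). Without untreated replicate 3 the number of genes that fell at day 10 dropped from 6 to 3, and without day 6 replicate 3 or replicate 4 the number that differed between the 2 days dropped from 7 to 4. Without the 8 libraries, 10 rose and 5 fell at day 10, and 7 differed between the days.

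Culture for 1 day changed 20 of 33 genes (67.6% of all genes changed), 11 upward (33.3%; 33.8% of all 12386 genes) and 9 downward (27.3%; 33.8% of all genes). The groups did not overlap for 17 genes (62.1% of all genes), and the median change was -0.11, against -0.01 for all genes. Of the 4 acyl-CoA synthetases 3 rose, as did the flavoprotein genes, while Cpt1a and Acad10 fell (2.07-fold and 4.61-fold). Neutrophil markers summed to 78.1 to 2121 CPM in uncultured and 10.2 to 15.9 in cultured libraries, and erythroid markers to 68.2 to 4543 and 479 to 656. Mpo, S100a8 and S100a9 of the 6 neutrophil markers were at 0 in all cultured libraries. Of the 10 HSC markers 8 fell and 1 rose in culture, and their sum was 4544 to 4904 CPM in uncultured and 2612 to 2879 in cultured libraries. The part of these cells was not tested. Without the 8 libraries, 10 rose and 8 fell. That fit kept only uncultured replicates 2 and 3, whose erythroid markers summed to 68.2 and 4543 CPM, against all cultured libraries.

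CD48+ HPCs and CD48- HSCs of day 10 differed in 5 of 33 genes (15.2%; 26.5% of all 12719 genes): Etfa and Etfb were higher (14% of all genes) and Acadsb, Acad10 and Acox3 lower (12.5% of all genes). For 6 genes the groups did not overlap (27.2% of all genes). The HPC libraries also had the higher macrophage sums given above, and their neutrophil markers summed to 121 to 434 CPM against 40.2 to 105 in CD48- HSCs. Erythroid markers summed to 9409 CPM in CD48- replicate 3 and to 248 to 395 in the other 7 libraries. The part of those cells was not tested. Only Acad10 passed when the 8 libraries were left out, a fit of CD48- replicates 1 and 2 against CD48+ replicates 1, 2 and 4. The changes that did not pass there were 0.52 for Etfa, 0.48 for Etfb, -0.42 for Acadsb and -0.37 for Acox3. The count of called genes dropped to 2 or 3 without CD48- replicate 1 (3) or 3 (2), or without CD48+ replicate 1 (2), 3 (3) or 4 (2).

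**Figure D2:**
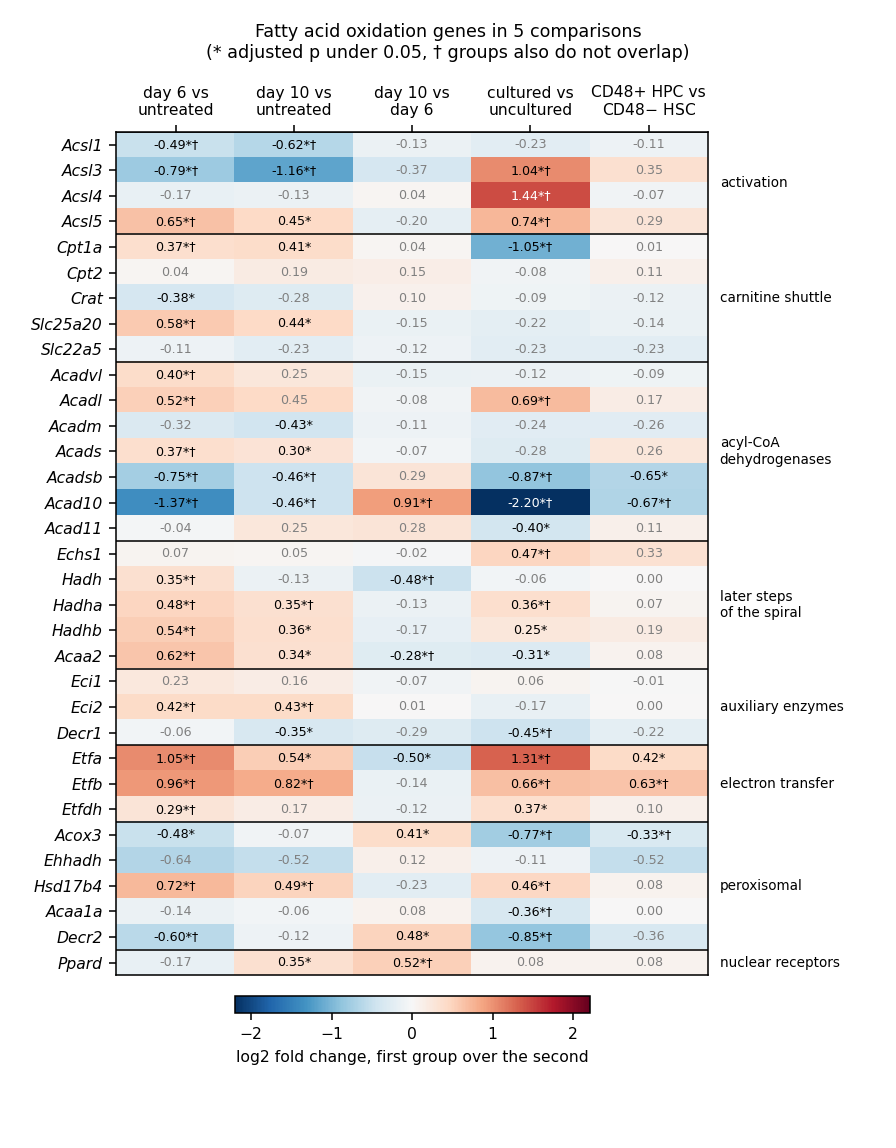
Log2 fold changes (colour and number) of the 33 tested genes, grouped by role, in 5 comparisons; * marks an adjusted p under 0.05 and † groups that also do not overlap. Electron transfer genes are red in 4 columns, Acad10 is blue in 4, reaching -2.20 in culture, and the column of HPCs against HSCs is mostly pale.

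Long-chain acyl-CoA synthetases make the acyl-CoA that either enters oxidation or goes into lipids. At day 6, 2 of the 4 fell and 1 rose (25.7% of all genes each way), as at day 10 (18.1% of all genes fell and 19.9% rose), and in culture 3 of 4 rose and none fell (33.8% of all genes each way). Acsl3, a synthetase of the endoplasmic reticulum and lipid droplets, was at 32.9, 29.4, 29.0 and 28.3 CPM in untreated HSCs and at 13.7, 16.6, 21.2 and 17.3 CPM at day 6. At day 10 its lowest, median and highest values were 11.0, 13.3 and 16.9 CPM, so all libraries taken after 5-FU lay below all untreated ones. It fell by 0.79 ± 0.15 (log2, SE) at day 6 and by 1.16 ± 0.14 at day 10 (adjusted p = 0.000469 and 2.18e-05). Culture moved it the other way, from 39.1, 22.7, 34.2 and 36.3 CPM to 68.8, 70.8, 64.8 and 67.7, a rise of 1.04 ± 0.14 (adjusted p = 2.47e-05) with no overlap. Of its reads 44.0% were unique, and with unique reads alone the changes were -0.53, -0.97 and 1.35.

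Acsl4, which prefers arachidonic acid and other polyunsaturated chains, had the largest rise of the list in culture. Uncultured libraries held 74.5, 40.8, 60.6 and 54.4 CPM and cultured ones 145, 147, 163 and 169. All cultured libraries stood above all uncultured ones, and the change was 1.44 ± 0.14 (adjusted p = 1.94e-06). After 5-FU Acsl4 did not pass (changes of -0.17 and -0.13, adjusted p = 0.306 and 0.425). Acsl5, a synthetase of mitochondria and the endoplasmic reticulum, rose from 94.5 ± 8.46 to 148 ± 12.9 CPM at day 6 (0.65 ± 0.16, adjusted p = 0.00266) and from 89.8 ± 11.0 to 149.7 ± 2.70 CPM in culture (0.74 ± 0.09, adjusted p = 1.00e-05), with no overlap in either. Its rise at day 10 was smaller, with overlapping libraries (0.45, adjusted p = 0.0228, lost in 3 settings other than intron reads). Acsl1 fell at day 6 and day 10 (-0.49 and -0.62, adjusted p = 0.00972 and 0.00175) and did not pass in culture (-0.23, adjusted p = 0.192). None of the 4 passed between HPCs and HSCs.

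Per exon length, Acsl5 supplied 54.8 ± 0.937% of the summed level of the 4 synthetases in untreated HSCs and 72.0 ± 2.09% at day 6, with no overlap between libraries (53.8 to 55.9% and 69.9 to 74.1%). The sum itself was 51.6 ± 4.01 RPKM in untreated and 61.4 ± 4.01 at day 6. In culture the sum reached 96.1 ± 2.32 RPKM, from 52.7 ± 7.82 in uncultured cells, and the share of Acsl4 was 29.2 ± 1.57% there against 19.5 ± 2.26%. Acsl5 held 46.6 ± 0.651% of the sum in cultured cells.

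**Figure D3:**
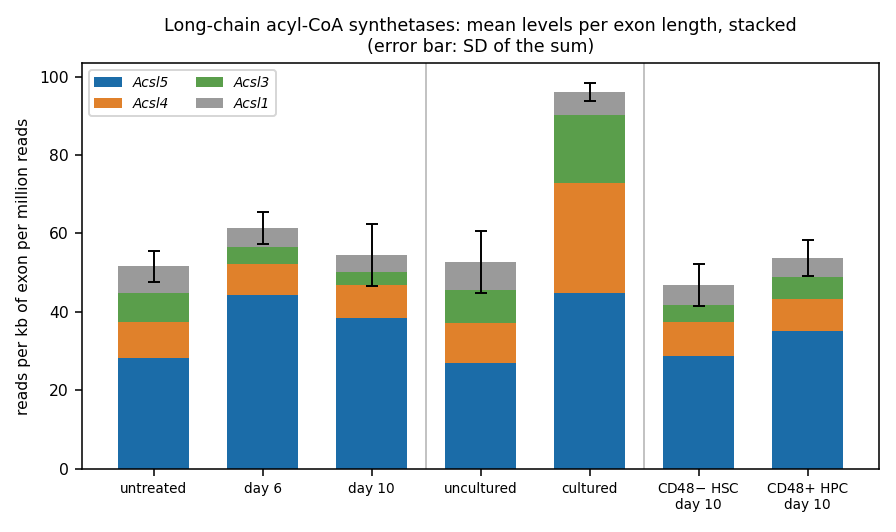
Mean levels per exon length of the 4 synthetases, stacked from 0, in the 7 groups, with the SD of the sum as error bar and grey lines between the 3 separately scaled experiments. The cultured bar is the tallest at 96.1 against 52.7 for uncultured cells, and the blue Acsl5 part grows from untreated to day 6.

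The carnitine shuttle brings long chains into mitochondria. At day 6, 2 of its 5 genes rose and 1 fell (25.7% of all genes each way), and in culture 1 fell (33.8% of all genes). Cpt1a, its entry enzyme, was at 363, 259, 327 and 313 CPM in untreated HSCs and at 425, 379.6, 427 and 395 CPM at day 6. At day 10 its lowest, median and highest values were 359.8, 435 and 446 CPM. Libraries of day 6 lay above all untreated ones, whereas the lowest of day 10 fell just under the highest untreated one. The rises were modest, 0.37 ± 0.09 at day 6 and 0.41 ± 0.09 at day 10 (adjusted p = 0.00441 and 0.00198). Its intron reads passed at neither time (0.15 and 0.23, adjusted p = 0.301 and 0.0953).

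In culture Cpt1a went down. Uncultured HSCs held 316, 339.7, 269 and 306 CPM and cultured HSCs 152, 160.4, 147 and 134, so every cultured library had less than any uncultured one. The fall of 1.05 ± 0.08 on the log2 scale (adjusted p = 2.44e-07) was also seen in its intron reads (-1.30, adjusted p = 4.89e-06). Between HPCs and HSCs of day 10, Cpt1a did not pass, with 387, 377, 359.6 and 393 CPM in HSCs and 389, 385, 391 and 359 in HPCs (change 0.01 ± 0.07, adjusted p = 0.957).

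Slc25a20, the carnitine-acylcarnitine carrier of the inner membrane, rose at both times after 5-FU (34.6 ± 5.54 CPM untreated, 51.8 ± 5.84 at day 6, 46.8 ± 6.67 at day 10; 0.58 and 0.44, adjusted p = 0.00203 and 0.0123). In culture its groups did not overlap (24.8 ± 0.942 against 29.0 ± 1.83 CPM), but the change of -0.22 did not pass (adjusted p = 0.0867). Crat, carnitine acetyltransferase, was lower at day 6 only by a change of -0.38 with overlapping libraries (adjusted p = 0.0219, lost in 4 settings other than intron reads). Cpt2, the inner membrane transferase, and Slc22a5, the carnitine importer of the plasma membrane, passed in none of the 5 comparisons, with changes between -0.23 and 0.19. Of the 5 shuttle genes, only Cpt1a passed in culture.

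Acyl-CoA dehydrogenases catalyse the first step of each turn. At day 6, 3 of the 7 rose and 2 fell (25.7% of all genes each way), and in culture 1 rose and 3 fell (33.8% of all genes each way). Acad10 had the largest change of the 33 genes at day 6 and in culture. It encodes a dehydrogenase family member whose substrates are less well known. Its values were 54.3, 50.3, 45.0 and 46.4 CPM in untreated HSCs and 21.1, 18.9, 19.5 and 16.2 CPM at day 6, and its lowest, median and highest values at day 10 were 27.7, 34.5 and 44.2 CPM. The 3 groups did not overlap, with day 10 lying between day 6 and untreated. The changes were -1.37 ± 0.14 at day 6 (2.59-fold lower, adjusted p = 1.65e-06), -0.46 ± 0.12 at day 10 (adjusted p = 0.00763) and 0.91 ± 0.13 between the 2 days (adjusted p = 0.000163).

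The fall of Acad10 in culture was larger in size than that after 5-FU, and the difference between the 2 effects was not tested. Uncultured HSCs held 56.2, 43.4, 38.1 and 51.4 CPM and cultured HSCs 9.60, 12.9, 7.90 and 10.4, a change of -2.20 ± 0.17 (4.61-fold lower, adjusted p = 2.15e-07). In CD48+ HPCs the values were 22.7, 24.6, 27.8 and 26.0 CPM, all below the 37.7, 32.6, 55.2 and 35.0 CPM of CD48- HSCs (-0.67 ± 0.17, adjusted p = 0.0132). Intron reads of Acad10 fell too, by 0.96 at day 6 and by 1.62 in culture (adjusted p = 0.000650 and 1.48e-06). At day 10 the intron reads of Acad10 did not pass against untreated HSCs (-0.27, adjusted p = 0.230). Its neighbour Acad12, a related gene that is not on the list and ends 2087 bases away on chromosome 5 (121598277 to 121618938), had changes of the same sign: -1.45 at day 6, -0.69 at day 10, -1.67 in culture and -0.74 in HPCs (adjusted p = 1.75e-06, 0.000619, 9.89e-05 and 0.0336). Acad12 was singled out after its values were seen, and 85.1% of the Acad10 reads were unique.

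Acadsb, which acts in isoleucine breakdown, fell at day 6 (23.1 ± 4.51 to 13.7 ± 2.70 CPM), at day 10 (16.8 ± 1.53) and in culture (21.9 ± 3.55 to 12.0 ± 2.50), by 0.75, 0.46 and 0.87 on the log2 scale (adjusted p = 0.00136, 0.0225 and 0.00120), with no overlap in any of them. Its fall at day 10 was lost without untreated replicate 3 or the 8 libraries, and its difference in HPCs (-0.65, adjusted p = 0.0481) was lost in 10 of 16 other settings. Acadvl for very long and Acads for short chains rose at day 6 (0.40 and 0.37, adjusted p = 0.00937 and 0.00873), and Acads also at day 10 (0.30, adjusted p = 0.0234). Without the 8 libraries neither rise of Acads passed. Acadl, for long chains, rose at day 6 and in culture (0.52 and 0.69, adjusted p = 0.0417 and 0.000286), the first of which was lost in 9 settings other than intron reads. Acadm, for medium chains, fell only at day 10 (-0.43, adjusted p = 0.0305), which was lost in 8 such settings, and Acad11 fell only in culture (-0.40, adjusted p = 0.0304), lost in 6.

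**Figure D4:**
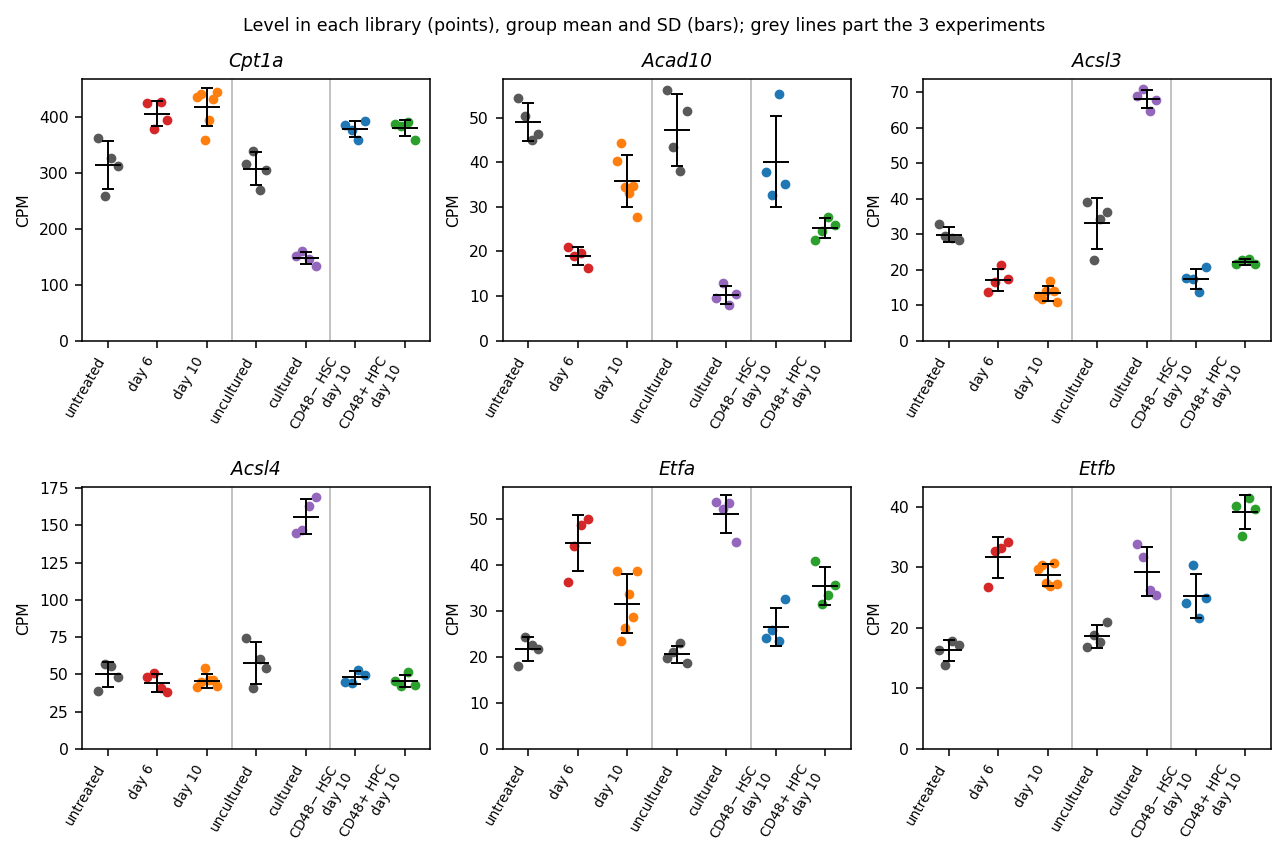
Level (CPM) of 6 genes in each of the 30 libraries, with group mean and SD, and grey lines between the 3 separately scaled experiments. Cpt1a is lowest in cultured cells, Acad10 is lowest in cultured and day 6 cells, Acsl3 and Acsl4 are highest in cultured cells, and mean Etfa and Etfb are higher at day 6, at day 10, in culture and in HPCs than in the group each was compared with.

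Of the 5 genes of the later steps of the mitochondrial spiral, 4 rose at day 6 (25.7% of all genes rose) and 3 at day 10 (19.9% of all genes), Hadhb among them at both times, whose rise was not seen with unique reads. Hadha and Hadhb, the 2 subunits of the trifunctional protein that handles long chains, rose at day 6 from 64.7 ± 6.36 to 90.1 ± 5.44 CPM (0.48 ± 0.09, adjusted p = 0.000526) and from 99.2 ± 10.7 to 144 ± 11.4 CPM (0.54 ± 0.09, adjusted p = 0.000189), both with no overlap. Hadha rose also at day 10 and in culture (0.35 and 0.36, adjusted p = 0.00506 and 0.00412). Only 32.8% of Hadhb reads were unique, and with unique reads its changes were 0.04 at day 6, -0.06 at day 10 and -0.27 in culture, none of which passed (adjusted p = 0.847, 0.738 and 0.0889), so the value of Hadhb is uncertain.

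Acaa2, the mitochondrial thiolase that ends each turn, rose from 40.5 ± 3.60 to 62.2 ± 3.72 CPM at day 6 (0.62 ± 0.10, adjusted p = 0.000122). At day 10 (51.4 ± 5.18 CPM) it was still above untreated HSCs, with overlapping libraries (0.34 ± 0.09, adjusted p = 0.00924, lost only with intron reads). Its level there was lower than at day 6 (-0.28, adjusted p = 0.0311, lost in 6 settings other than intron reads). Its fall in culture (-0.31, adjusted p = 0.0438) was lost in 9 of 16 other settings. Hadh rose to 115 ± 2.79 CPM at day 6, from 90.3 ± 14.3, and stood at 82.6 ± 10.3 CPM at day 10, with no overlap between the 2 days (-0.48 ± 0.10, adjusted p = 0.00341). Its rise at day 6 (0.35, adjusted p = 0.0201) was lost without untreated replicate 2 or 3, without day 6 replicate 2, and without the 8 libraries. Echs1, the hydratase of short chains, changed only in culture (33.8 ± 3.05 to 46.8 ± 1.10 CPM, 0.47 ± 0.10, adjusted p = 0.000845).

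The auxiliary enzymes prepare unsaturated chains for the spiral. Eci2, an enoyl-CoA isomerase, rose at day 6 and day 10 (48.2 ± 1.96 CPM untreated, 64.3 ± 5.77 and 64.9 ± 4.82; 0.42 and 0.43, adjusted p = 0.00107 and 0.000807), with no overlap. Decr1, the mitochondrial dienoyl-CoA reductase, fell at day 10 and in culture (-0.35 and -0.45, adjusted p = 0.0234 and 0.00508), and the first was lost in 4 settings other than intron reads. Eci1, another enoyl-CoA isomerase, passed in no comparison, although its day 6 libraries all lay above the untreated ones (0.23, adjusted p = 0.0842).

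All 3 electron transfer genes rose at day 6 (25.7% of all genes rose) and in culture (33.8% of all genes), 2 rose at day 10 (19.9% of all genes) and 2 were higher in HPCs (14% of all genes). ETFA and ETFB form the flavoprotein that takes electrons from the acyl-CoA dehydrogenases, and ETFDH hands them to ubiquinone. Etfa was at 18.1, 24.3, 22.6 and 21.8 CPM in untreated HSCs and at 36.3, 44.2, 48.7 and 50.0 CPM at day 6. Its lowest, median and highest values at day 10 were 23.5, 31.2 and 38.8 CPM, which overlap both other groups. The changes were 1.05 ± 0.17 at day 6 (adjusted p = 1.0e-04), 0.54 ± 0.15 at day 10 (adjusted p = 0.0124) and -0.50 ± 0.15 between day 10 and day 6 (adjusted p = 0.0174), the second of which was lost in 1 setting other than intron reads and the last without day 6 replicate 3 or 4.

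Culture raised Etfa from 19.8, 21.1, 23.0 and 18.7 CPM to 53.7, 52.2, 53.4 and 45.1, with wide separation and a change of 1.31 ± 0.11 (2.47-fold, adjusted p = 4.06e-07). In CD48+ HPCs it was at 41.0, 31.5, 33.6 and 35.7 CPM, against 24.2, 25.9, 23.5 and 32.5 in CD48- HSCs, where 1 HSC library lay within the range of the HPCs (0.42 ± 0.14, adjusted p = 0.0442). That difference was lost in 8 settings other than intron reads.

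Etfb, the partner subunit, kept a higher level at both times: 16.3 ± 1.75 CPM in untreated HSCs (n = 4), 31.7 ± 3.35 at day 6 (n = 4) and 28.7 ± 1.76 at day 10 (n = 6), with all treated libraries above all untreated ones (0.96 ± 0.11 and 0.82 ± 0.11, adjusted p = 7.00e-06 and 4.20e-05). It rose in culture from 18.6 ± 1.85 to 29.3 ± 4.06 CPM (0.66 ± 0.14, adjusted p = 0.00105) and was at 39.1 ± 2.77 CPM in HPCs against 25.3 ± 3.63 in HSCs (0.63 ± 0.13, adjusted p = 0.00491), with no overlap in either. Without the 8 libraries the difference in HPCs was 0.48 (adjusted p = 0.0625). The day 6 and day 10 calls held in all 17 and 19 other settings. Etfdh rose at day 6 and in culture by smaller amounts (0.29 and 0.37, adjusted p = 0.0284 and 0.0115), and the day 6 call was lost in 5 settings other than intron reads, 1 of them the fit without the 8 libraries (0.31, adjusted p = 0.0547). The rise of Etfdh in culture was lost without them too (0.30, adjusted p = 0.0797).

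The peroxisomal genes did not all move one way. Hsd17b4, the D-bifunctional protein that hydrates and dehydrogenates very long and branched chains, rose at day 6 (47.2 ± 7.16 to 77.7 ± 6.72 CPM, 0.72 ± 0.11, adjusted p = 9.35e-05), at day 10 (66.3 ± 6.23 CPM, 0.49, adjusted p = 0.00204) and in culture (40.9 ± 2.91 to 56.3 ± 5.80 CPM, 0.46, adjusted p = 0.00126), each with no overlap. Acox3, an oxidase of branched chains, and Decr2, the peroxisomal dienoyl-CoA reductase, did the reverse: at day 6 they fell by 0.48 and 0.60 (adjusted p = 0.0104 and 0.000730) and in culture by 0.77 and 0.85 (adjusted p = 1.53e-05 and 7.21e-06). Both were higher at day 10 than at day 6 (0.41 and 0.48, adjusted p = 0.0281 and 0.00464, the first lost in 4 settings other than intron reads), and at day 10 neither passed against untreated cells (-0.07 and -0.12, adjusted p = 0.679 and 0.428). Acox3 was also lower in HPCs (-0.33, adjusted p = 0.0211, lost in 6 settings other than intron reads). Acaa1a fell only in culture (-0.36, adjusted p = 0.00461), and Ehhadh passed in no comparison (changes of -0.64 to 0.12).

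Ppard, the receptor present in these cells, was at 34.02 ± 6.12 CPM in untreated HSCs, 30.3 ± 3.07 at day 6 and 43.4 ± 4.46 at day 10. All day 10 libraries lay above all day 6 libraries (0.52 ± 0.12, adjusted p = 0.00511), while the rise over untreated cells was smaller (0.35, adjusted p = 0.0335) and was lost in 6 settings other than intron reads. Neither culture nor the CD48 comparison passed (0.08 in both, adjusted p = 0.567 and 0.730).

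Intron reads are a second readout from the same libraries. Of the 15 genes that rose at day 6 in exon reads, Etfb alone rose in intron reads (0.73, adjusted p = 0.0120; 14.4% of all 14996 genes rose), and Etfdh fell (-0.50, adjusted p = 0.0221). Of the 7 that fell, Acsl1, Acsl3, Acadsb and Acad10 fell in intron reads too, and with Acadm and Etfdh the list had 6 falls (12.7% of all genes fell). In culture the intron reads of Acsl3, Acsl4 and Acsl5 rose (1.16, 1.20 and 0.51; 22.8% of all 14291 genes rose), and those of 8 genes fell, Cpt1a and Acad10 among them (24.6% of all genes fell). Hsd17b4 was opposite in the 2 readouts in culture, with 0.46 in exon and -0.62 in intron reads (adjusted p = 0.0127 for the latter). Etfa, with its exon rise of 1.31 in culture, had an intron change of 0.24 (adjusted p = 0.0578).

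At day 10, Etfb rose in intron reads (10.5% of all genes rose), and Acsl1, Acsl3, Acadsb and Ehhadh fell (8.31% of all genes fell). Between day 10 and day 6, Acad10 and Ppard were higher at day 10 in intron reads (9.26% of all genes), as in exon reads, and Hadh and Slc22a5 lower (7.69% of all genes). In HPCs the intron reads of Acsl3 were higher (6.45% of all genes) and those of Acadm, Acadsb and Acad10 lower (5.41% of all genes), so Acad10 and Acadsb were lower in both readouts.

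The share of intron reads among the reads of each gene was lower at day 6 than in untreated HSCs for all 33 genes, and for 21 of them the libraries did not overlap (29.2% of all genes). The median over the genes was 45.0% at day 6 and 58.4% in untreated HSCs. In Etfa the share went from 86.3 ± 1.34% to 70.4 ± 4.19%, and in Hsd17b4 from 66.8 ± 2.76% to 45.0 ± 3.77%, whereas Acad10 stayed at 74.3 ± 0.727% and 73.8 ± 2.55%. In culture the share was lower for 32 of 33 genes, 19 without overlap (34.8% of all genes). At day 10 it was lower than in untreated HSCs for 33 genes, 14 without overlap (13.2% of all genes), and it was higher than at day 6 without overlap for 3 (3.95% of all genes). In HPCs it was lower for 33 genes, 8 without overlap (8.76% of all genes). For the counts of a lower share without regard to overlap (33 or 32 of 33 genes), no share of all genes is given. The intron share of the whole libraries, given above, was lower at day 6, at day 10, in culture and in HPCs as well, and its part in these values was not tested.

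**Figure D5:**
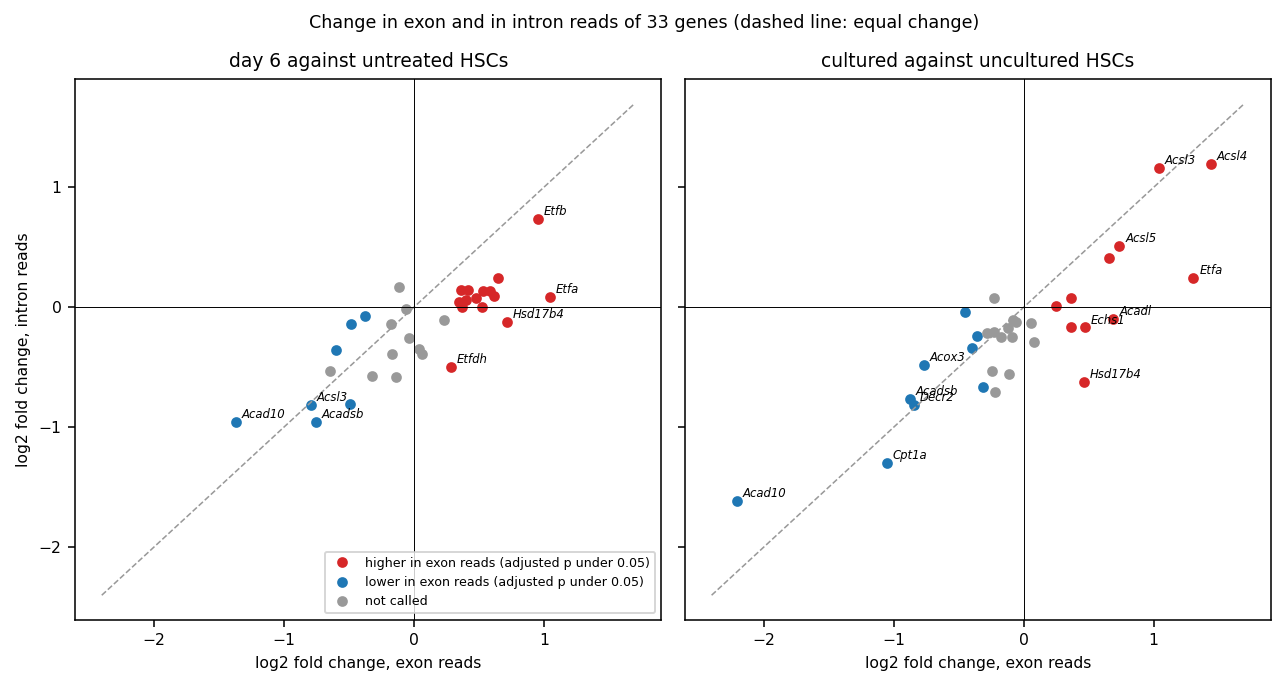
Log2 fold change in intron reads against that in exon reads for the 33 tested genes, day 6 against untreated (left) and cultured against uncultured HSCs (right), with colours for the exon call and a dashed line of equal change. Names are written for called genes with an exon change of at least 0.7 or a gap of at least 0.6 between the readouts; Acsl3 lies near the line in both panels, while Etfa and Hsd17b4 lie far below it.

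The 5-FU and culture experiments have separate controls, so their calls can be set side by side. Of the 15 genes that rose at day 6 and the 11 that rose in culture, 8 were shared: Acsl5, Acadl, Hadha, Hadhb, Etfa, Etfb, Etfdh and Hsd17b4. That is 24.2% of the 33, close to the 22.6% of all 12301 genes tested in both experiments that rose in both. Among the shared rises, Hadhb passed in neither experiment with unique reads. Without the 8 libraries Etfdh passed in neither, and Acadl did not pass at day 6. Of the 7 that fell at day 6 and the 9 that fell in culture, 4 were shared (12.1%; 20.6% of all genes fell in both): Acadsb, Acad10, Acox3 and Decr2. Calls of opposite direction were found for 3 genes (1.2% of all genes), Cpt1a and Acaa2, which rose at day 6 and fell in culture, and Acsl3, which did the reverse. The fall of Acaa2 in culture was lost in 9 of 16 other settings. Of the 33, 6 passed in neither (18.2%; 24.3% of all genes): Cpt2, Slc22a5, Acadm, Eci1, Ehhadh and Ppard.

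Other genes of fatty acid handling, 81 from a wider list, were counted for comparison. At day 6, 11 of the 70 tested rose (15.7%; 25.7% of all genes) and 19 fell (27.1%; 25.7% of all genes). At day 10, 9 rose (12.9%; 19.9% of all genes) and 11 fell (15.7%; 18.1% of all genes). In culture 12 rose (17.1%; 33.8% of all genes) and 35 fell (50.0%; 33.8% of all genes). In HPCs 5 of 72 were higher (6.94%; 14% of all genes) and 14 lower (19.4%; 12.5% of all genes). The genes named next passed, did not overlap and changed at least 2-fold, and at most 10 were named in a comparison. At day 6, Angptl4 (5.88 ± 1.97 to 20.6 ± 4.57 CPM), an inhibitor of lipoprotein lipase and PPAR target, rose, as did Oxct1 (62.5 ± 15.4 to 125 ± 7.20 CPM), which activates ketone bodies, Dbi (20.2 ± 2.13 to 40.9 ± 1.83), the acyl-CoA binding protein, Nudt19, which cleaves coenzyme A, and Fabp5, a fatty acid binding protein, while Acad12 fell. At day 10, Fabp5 and Angptl4 rose, and Slc27a6, Prkaa2 and Acsbg1 fell.

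In culture, the falls named by that rule were in Acsbg1, Pdk4, Cd36, Ppargc1a, Acot4, Acot1 and Acacb. Pdk4, the kinase that shuts pyruvate dehydrogenase, went from 10.8 ± 4.78 to 0.888 ± 0.297 CPM, Ppargc1a, the coactivator of mitochondrial genes, from 9.80 ± 3.76 to 1.61 ± 0.328 CPM and Acacb, whose product makes the malonyl-CoA that inhibits CPT1, from 31.6 ± 5.43 to 6.30 ± 1.46 CPM (adjusted p = 1.17e-05, 2.23e-05 and 5.88e-07). Acot1 is nearly identical to other genes of its family, so its value is uncertain. Dbi, Fabp5 and Bdh1 rose (5.02-fold, 4.80-fold and 4.42-fold), Dbi from 17.1 ± 1.90 to 85.9 ± 5.09 CPM (2.33 ± 0.10, adjusted p = 2.94e-09). Between the CD48 groups, Cpt1c, a carnitine palmitoyltransferase relative, was at 4.72 ± 1.17 CPM in HPCs and 20.5 ± 5.27 in HSCs (-2.12 ± 0.25, adjusted p = 0.000222), Pdk4, Acot4 and Slc27a6 were also lower in HPCs, and Fabp5 was higher.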

How the data were processed

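Each library came with 1 deposited table of read counts per gene, which the authors made from alignments to mm10, per the submitters' processing notes, with total and unique exon and intron counts in its columns, per the file headers. No source used here names the aligner, the counter or a strand setting, so reads of overlapping or antisense genes cannot be told apart. Total exon counts were summed over the entries of each gene identifier.

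The main test was edgeR 4.0.16 (quasi-likelihood, filterByExpr, TMM scaling) in R 4.3.3 with limma 3.58.1, with 1 fit for each of the 3 experiments and Benjamini-Hochberg adjustment over all genes tested (12886, 12386 and 12719), and calls were made at an adjusted p under 0.05. CPM used TMM library sizes within an experiment, and RPKM divided it by kb of exon. At 5208722 to 12243208 exon reads a library, 3 reads were worth 0.251 to 0.561 CPM, which covers counting error only. Plots were drawn with matplotlib 3.10.9, from tables made with pandas 2.3.3 and NumPy 2.4.6 under Python 3.11.15.

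Alternatives were RLE scaling, DESeq2 1.42.0, no filter, unique exon reads, intron reads, all 30 libraries in 1 fit, the groups compared alone, the replicate number as a block and each library left out. Leaving out 8 libraries together was added after seeing the data: in each, macrophage, stromal or neutrophil markers summed to at least 100 CPM and to at least 3 times the median of the other libraries of its group. Erythroid markers were not part of this rule. Uncultured replicate 3 and day 10 replicate 1, with erythroid sums of 4543 and 1473 CPM, were kept. Across 20 pairs of libraries with the same replicate number, deviations from group means correlated between -0.31 and 0.158, with 2 pairs over 0.1, so the numbers were not taken to pair libraries. In the CD48 experiment some pairs of different number correlated more. HPC replicates 1, 2, 3 and 4 reached 0.549, 0.439, 0.439 and 0.369 with HSC replicates 2, 3, 4 and 1, and the lowest pair was at -0.526. Whether those groups are paired under other numbers was not tested, and they were fitted without pairs. The 51 pairs of replicates differed by more than sampling noise (chi-square per degree of freedom 2.46 to 45.7).

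Every library's value is given for genes called at least once with groups that did not overlap and a change of at least 2-fold, and at most 10 other pathway genes per comparison are named by the same criteria. The members and gene lists were chosen with earlier results of these data known. Simulated data for day 6 against untreated held 12362 genes, of which 67 were changed 1.5-fold, 67 were changed 2-fold and 66 were changed 4-fold. The fit held only the libraries of day 6 and untreated cells. Of the changed genes 47.8%, 85.1% and 100% were recovered, and 6.63% of calls were false. In the real data 51.4% of genes were called at day 6, so these shares need not hold there.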

Additional observations from a re-analysis of the deposited data

Results flagged for a closer look

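In 10 of 232 groups of values (1 group of libraries for 1 gene), a single library stood apart from the rest of its group by Dixon's 95% critical value, which chance gives in about 1 in 20 groups. Single high values were found for Cpt2 in uncultured replicate 1 (48.6 CPM, nearest 40.4), Acadl in day 10 replicate 6 (58.4, nearest 36.7), Acadsb in CD48+ replicate 2 (20.5, nearest 12.1), Hadh in uncultured replicate 2 (126, nearest 98.0) and in CD48- replicate 2 (124, nearest 106), Eci2 in cultured replicate 1 (49.99, nearest 40.8) and Etfdh in uncultured replicate 3 (40.2, nearest 33.3). Single low values were found for Hadha in untreated replicate 3 (55.1 CPM, nearest 67.6), Etfa in cultured replicate 4 (45.1, nearest 52.2) and Ehhadh in untreated replicate 1 (5.46, nearest 13.5).

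The effects at day 10 and day 6, tested against each other in edgeR within 1 fit, differed for 7 genes. On the log2 scale, day 10 minus day 6 was 0.91 for Acad10, 0.52 for Ppard, 0.48 for Decr2, 0.41 for Acox3, -0.48 for Hadh, -0.50 for Etfa and -0.28 for Acaa2.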

How the results depend on the processing

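All 72 called changes of the list kept direction and call under RLE scaling, DESeq2 and a fit of all 30 libraries, and 69 of 72 without a filter. With intron reads the number of called genes was 7 (1 higher) at day 6, 5 (1 higher) at day 10, 4 (2 higher) between the days and 11 (3 higher) in culture, and 1 was higher in HPCs. The genes lower at day 10 than at day 6 numbered 6 with all 30 libraries in 1 fit and 5 with unique reads. With the replicate number as a block, 15 rose and 7 fell at day 6, 10 and 5 at day 10, 4 and 2 between the days, 11 and 8 in culture, and 2 differed in HPCs (1 higher, 1 lower). Etfa at day 10 was among the calls lost there (0.49, adjusted p = 0.0649). Without the 8 libraries, 1 differed in HPCs (0 higher, 1 lower). Leaving out single libraries gave 19 to 21 called genes at day 6 (12 to 14 higher, 6 to 8 lower), 13 to 21 at day 10 (10 to 14, 3 to 7), 4 to 8 between the days (3 to 4, 1 to 4), 18 to 20 in culture (11 higher, 7 to 9 lower) and 2 to 5 in HPCs (1 to 3, 1 to 3). The direction turned with intron reads for Acadl (-0.0007), Etfdh (-0.50) and Hsd17b4 (-0.12) at day 6, for Acsl5 (-0.14), Acads (-0.28) and Acaa2 (-0.028) at day 10, and for Acadl (-0.10), Echs1 (-0.17), Etfdh (-0.16) and Hsd17b4 (-0.62) in culture. It turned with unique reads for Hadhb at day 10 (-0.065) and in culture (-0.27). The cause was not tested. Depth limits Ppara, which stayed near the level of 3 reads. In the simulated data for day 6, where few genes were changed, 47.8% of 1.5-fold changes were recovered, which need not hold for the real data.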
